A study of Mus musculus with 6 samples.

Results

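GABA-A receptors are ion channels that open when they bind GABA, the main inhibitory transmitter of the retina and brain. The genes described here are 7 of their subunits, listed by name and not by a threshold on their values: Gabra2, Gabra3, Gabra4, Gabra5, Gabrb1, Gabrb2 and Gabrd. All 7 have a row among the 32371 genes of the count table, and 6 passed the filter on low counts that left 18138 genes for testing. RNA-Seq compared AAV2-GFP with AAV2-Ezh2-Y726D in C57BL/6J mice, with 3 libraries in each group. In both groups the virus was injected into the vitreous 2 weeks before optic nerve crush (ONC), and cells were taken 3 days after it, so that the controls carried the injury and a virus as well, and no uninjured retina was compared. Ezh2 is the histone methyltransferase of Polycomb repressive complex 2, which places the repressive H3K27me3 mark. Ezh2-Y726D is a form with tyrosine replaced by aspartic acid in the enzyme, which the study used as catalytically dead. Cells were sorted from dissociated retina for CD90.2, a surface protein of retinal ganglion cells (RGCs), and the sources used here do not say whether a library pools mice or whether replicates are separate animals, so P values measure the spread between these libraries.

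A GABA-A receptor is a ring of subunits that, in its common form, holds alpha, beta and either gamma or delta subunits. The alpha subunit shapes how sensitive and how fast the receptor is, the beta subunit is needed for assembly and GABA binding, a gamma subunit holds the receptor at the synapse, and delta replaces gamma in receptors outside the synapse that respond to low ambient GABA. The rho subunits form receptors of their own, known in the retina from bipolar cell terminals. Retinal GABA is released mostly by amacrine cells, onto RGCs, bipolar cells and other amacrine cells.

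Levels are CPM, the read counts of a gene scaled to a common library size with edgeR's trimmed mean of M values (TMM). A difference is the log2 fold change of Ezh2-Y726D against GFP from edgeR's quasi-likelihood test. A gene was called at an adjusted P (Benjamini-Hochberg over all genes tested) under 0.05, and a differentially expressed gene (DEG) also had a fold change over 1.5. The libraries held 9333244 to 23782520 counts, but the ribosomal RNA gene CT010467.1 took 50.9% and 52.2% of GFP replicates 2 and 3, against 2.55% to 16.1% of the other 4. These GFP libraries held 5745352 and 4460732 counts without that gene, the others at least 15280377, so low genes are measured less precisely there. Ezh2 had 22.7 to 26.3 CPM in GFP and 65.1 to 65.5 CPM in Ezh2-Y726D libraries, so that every library labelled Ezh2-Y726D was higher in the gene that was overexpressed. RNA of other cells than RGCs was present, since every library held counts of all markers reported here of rods, bipolar cells and Müller glia. In GFP libraries the 6 rod markers had 11.8 (Cnga1) to 322.9 (Gnat1) CPM per kb of exon, the 6 Müller glia markers 7.85 (Sox9) to 909.7 (Glul) and the 11 RGC markers 0.517 (Pou4f2) to 44.7 (Nefl), ranges that overlap, with Thy1, the gene of CD90, at 33.2 to 36.9. In such bulk libraries, fewer cells of a type and less RNA per cell cannot be told apart.

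Of the 7 subunits, 5 were higher with Ezh2-Y726D and none was lower, where 13.9% of all genes tested were called higher and 13.6% lower. The 7 were chosen with earlier results of these data known, so this count is a description and not a test. Gabra2, Gabra3, Gabra4, Gabrb1 and Gabrb2 rose by 0.41 to 0.78 on the log2 scale, Gabrd did not pass the test, and Gabra5 was too low to be tested. Over the 6 tested members the median log2 fold change was 0.57, beside 0.00 over all genes tested. The summed CPM of the 7 genes was 93.8 to 100.3 in GFP and 131.6 to 143.4 in Ezh2-Y726D libraries. Gabra2, Gabra4 and Gabrb1 were DEGs, where 2.52% of all genes tested were DEGs that rose and 5.5% DEGs that fell. For the same 5 genes that were called, every Ezh2-Y726D library lay above every GFP library, which was so for 19.7% of all genes tested, and the reverse for 18.9%.

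**Figure D1:**
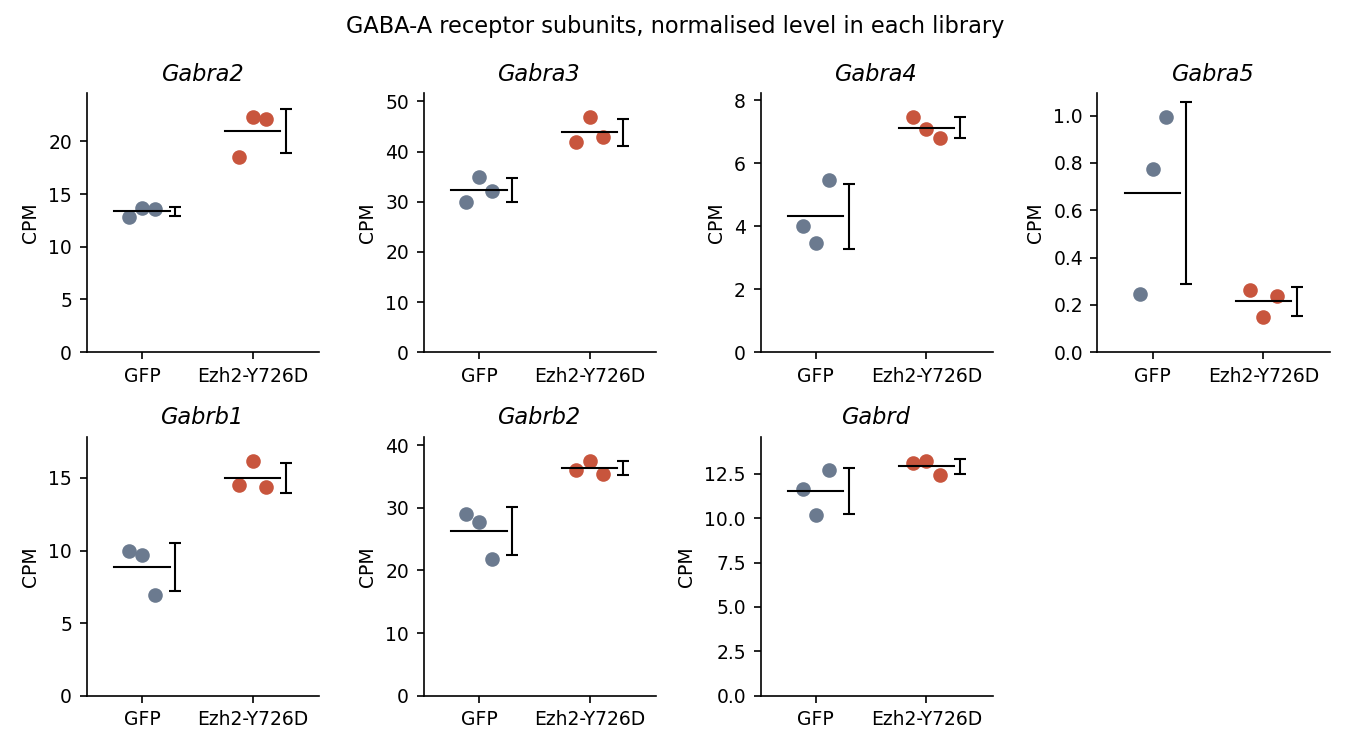
CPM (vertical axes, each starting at 0) of the 7 subunits in each of the 3 GFP and 3 Ezh2-Y726D libraries, with points for libraries and bars for the mean ± SD. The 2 sets of points do not overlap for Gabra2, Gabra3, Gabra4, Gabrb1 and Gabrb2, and overlap for Gabra5 and Gabrd.

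The DNA before the start sites is shown here because Ezh2 acts on chromatin and CpG-rich promoters are where Polycomb complexes are known to gather. RefSeq on GRCm38.p6 gives the 250 bases upstream of a start for Gabra2, Gabra3, Gabra4, Gabra5, Gabrb1 and Gabrb2. Gabra3 and Gabrb1 have 2 such windows and Gabrb2 has 3, and only the one nearest the GENCODE start of the gene is described. CG dinucleotides, which are dense in CpG island promoters, number 18 before Gabra2, 12 before Gabra4, 18 before Gabrb1, 9 before Gabra5, 8 before Gabrb2 and 0 before Gabra3, and the median of all 32851 such windows was 6. Windows with at least 18 made up 21.7% of the total, and those with none 7.87%. Stretches of 120 bases that lie in no annotated exon are printed for 4 members. They were chosen to span CG-dense (Gabra2), CG-free (Gabra3), overlapping (Gabra4, which overlaps Gabrb1) and TATA-bearing (Gabrb2) starts. The Gabra4 stretch lies inside the Gabrb1 gene, outside its exons. All stretches read 5′ to 3′ on the gene's strand, with each CG in capitals.
Gabra2, chr5:71095850-71095969, minus strand: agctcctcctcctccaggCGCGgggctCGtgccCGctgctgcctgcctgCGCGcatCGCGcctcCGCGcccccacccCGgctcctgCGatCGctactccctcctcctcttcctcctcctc
Gabra3, chrX:72656849-72656968, minus strand: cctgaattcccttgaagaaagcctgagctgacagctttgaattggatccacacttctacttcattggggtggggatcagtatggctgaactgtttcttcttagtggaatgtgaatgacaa
Gabra4, chr5:71658364-71658483, minus strand: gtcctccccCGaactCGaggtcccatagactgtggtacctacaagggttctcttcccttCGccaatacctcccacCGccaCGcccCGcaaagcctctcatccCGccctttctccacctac
Gabrb2, chr11:42420320-42420439, plus strand: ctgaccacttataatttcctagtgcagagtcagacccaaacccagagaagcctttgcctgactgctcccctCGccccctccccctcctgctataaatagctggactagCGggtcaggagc
The printed stretches hold 13, 0, 7 and 2 CG dinucleotides in that order. The stretch of Gabrb2 lies before the RefSeq start, which is 683 bases inside the GENCODE gene. Searching both strands of the 250-base windows, the GC box core GGGCGG was in those of Gabra2, Gabra4 and Gabrb2 and in 32.7% of all windows. The TATA core TATAAA was in those of Gabra3 and Gabrb2 and in 12.4% of all windows, and the cAMP response element TGACGTCA was in none of the 6 and in 1.55% of all windows. The 5 genes that rose include the window with no CG and both windows with 18, and no motif of the 3 was in all of them. Gabra5, which was barely detected, had a CG number between those of Gabrb2 and Gabra4.

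Among the alpha subunits, Gabra2 (ENSMUSG00000000560, chr5:70957597-71095849 on GRCm38) encodes alpha 2, a synaptic subunit that carries the calming action of benzodiazepines. Gabra2 had 12.9, 13.7 and 13.6 CPM in the GFP libraries and 18.5, 22.3 and 22.1 CPM in the Ezh2-Y726D libraries, from 82 to 653 counts. All 3 Ezh2-Y726D libraries were above the GFP range, and the spread among them was wider than among GFP libraries. The mean rose from 13.4 ± 0.441 to 21.0 ± 2.12 CPM (SD, n = 3 each), a log2 fold change of 0.67 (SE 0.088, edgeR's adjusted P = 7.13e-07).

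Gabra3 (ENSMUSG00000031343, chrX:72432681-72656848) encodes alpha 3, found at retinal synapses of several neuron classes. Its CPM were 30.0, 34.9 and 32.1 in GFP and 41.8, 46.9 and 42.8 in Ezh2-Y726D libraries. Both groups were spread by a similar amount and stood apart. The mean went from 32.4 ± 2.45 to 43.8 ± 2.68 CPM (SD, n = 3 each), and the log2 fold change of 0.46 (SE 0.066, edgeR's adjusted P = 2.33e-06) is a fold of 1.38, under the 1.5 that defines a DEG.

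Gabra4 (ENSMUSG00000029211, chr5:71569749-71658308) encodes alpha 4, which pairs with delta in receptors outside the synapse. It was a low gene, with 3.99, 3.48 and 5.47 CPM from 114, 27 and 33 counts in GFP, and 7.47, 7.10 and 6.80 CPM from 199, 145 and 201 counts in Ezh2-Y726D libraries. The GFP libraries with the fewest counts gave both the lowest and the highest GFP level. The log2 fold change was 0.78 (SE 0.14, edgeR's adjusted P = 7.07e-05), the largest of the tested members and the one with the largest error. With all libraries thinned to the depth of the shallowest, it was 0.55 and no longer called (edgeR's adjusted P = 0.0594).

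Gabra5 (ENSMUSG00000055078, chr7:57407672-57510059) encodes alpha 5, a mostly extrasynaptic subunit best known from the hippocampus. It had 7, 6 and 6 counts in GFP and 7, 3 and 7 in Ezh2-Y726D libraries, or 0.245, 0.773 and 0.994 CPM against 0.263, 0.147 and 0.237 CPM. The deepest GFP library lay within the Ezh2-Y726D range, so the groups overlap, and the gene lay near the limit of what this depth shows (3 counts were 0.102 to 0.497 CPM). Without the filter, edgeR gave a log2 fold change of -1.12 (SE 0.565, adjusted P = 0.212), so a difference in either direction was not detectable at this depth.

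Among the beta subunits, Gabrb1 (ENSMUSG00000029212, chr5:71658113-72149037) encodes beta 1 and overlaps Gabra4 on the opposite strand, with RefSeq starts 387 bases apart. Its CPM were 9.98, 9.66 and 6.96 in GFP and 14.5, 16.2 and 14.4 in Ezh2-Y726D libraries. The lowest GFP level came from the library with 42 counts, and the Ezh2-Y726D libraries were all higher than any GFP library. The mean rose from 8.87 ± 1.66 to 15.0 ± 1.03 CPM (SD, n = 3 each), a log2 fold change of 0.67 (SE 0.10, edgeR's adjusted P = 7.51e-06). Exons of Gabra4 and Gabrb1 in GENCODE vM21 share 0.756% and 0.332% of their bases with each other. Reads in that overlap were not counted apart.

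Gabrb2 (ENSMUSG00000007653, chr11:42419757-42629028) encodes beta 2, a beta subunit of synaptic receptors. In GFP it had 29.1, 27.7 and 21.9 CPM, and in Ezh2-Y726D libraries 36.0, 37.5 and 35.4 CPM. GFP replicate 3 was lowest, and the Ezh2-Y726D libraries lay close together above all 3. The mean went from 26.2 ± 3.83 to 36.3 ± 1.12 CPM (SD, n = 3 each), a log2 fold change of 0.41 (SE 0.071, edgeR's adjusted P = 4.39e-05) or a fold of 1.33, which did not make it a DEG.

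The delta subunit is encoded by Gabrd (ENSMUSG00000029054, chr4:155384980-155398112), which takes the place of gamma in extrasynaptic receptors with alpha 4. It had 11.6, 10.2 and 12.8 CPM in GFP and 13.1, 13.3 and 12.4 CPM in Ezh2-Y726D libraries. One Ezh2-Y726D library lay below the highest GFP library, so the groups overlap. The log2 fold change was 0.16 (SE 0.094, edgeR's adjusted P = 0.212), with an approximate 95% interval from -0.02 to 0.35. The interval includes 0, and the gene was not called under any of the 17 alternatives.

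The levels of different genes were compared only per length, as CPM per kb of exon. In GFP libraries Gabra3 was highest of the 7 at 8.25 ± 0.624, then Gabrb2 at 4.12 ± 0.602 and Gabrd at 4.01 ± 0.450, Gabra2 at 1.75 ± 0.0578, Gabra4 at 0.709 ± 0.170, Gabrb1 at 0.641 ± 0.120 and Gabra5 at 0.226 ± 0.129 (mean ± SD, n = 3). Gabrb2 and Gabrd differed by less than their SD, as did Gabra4 and Gabrb1. In Ezh2-Y726D libraries the order was the same, and Gabrb2 at 5.71 ± 0.176 and Gabrd at 4.50 ± 0.155 were separated by more than their SD. Gabra4 at 1.17 ± 0.0549 and Gabrb1 at 1.09 ± 0.0744 differed by little more than their SD.

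Other GABA-A subunits did not all move the same way. Of those reported here, 7 have a row and 5 were tested, of which the gamma subunits Gabrg1 and Gabrg3 were higher and the 3 rho subunits lower, beside 13.9% and 13.6% of all genes tested. Gabrg1, from the same cluster as Gabra2, Gabra4 and Gabrb1, had 4.24, 4.64 and 5.80 CPM in GFP and 8.03, 8.03 and 8.70 CPM in Ezh2-Y726D libraries, a log2 fold change of 0.85 (SE 0.13, edgeR's adjusted P = 7.78e-06). Gabrg3 rose by 0.39 (SE 0.071). The rho subunits fell: Gabrr1 by 0.55 (SE 0.05), Gabrr2 by 0.51 (SE 0.054) and Gabrr3 by 0.82 (SE 0.072) on the log2 scale, all called by edgeR under TMM, and Gabrr3 as a DEG. Gabrr1 had 69.8 to 72.7 CPM in GFP and 47.2 to 49.4 CPM in Ezh2-Y726D libraries. Gabre and Gabrq had at most 12 counts in a library and were not tested, and Gabra6 and Gabrp were not analysed here. Exons of other genes overlap 6.53% of the exonic bases of Gabrr3, and reads there cannot be assigned with certainty. The groups did not overlap for any of these 5 tested subunits, where 19.7% of all genes tested were higher and 18.9% lower without overlap.

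**Figure D2:**
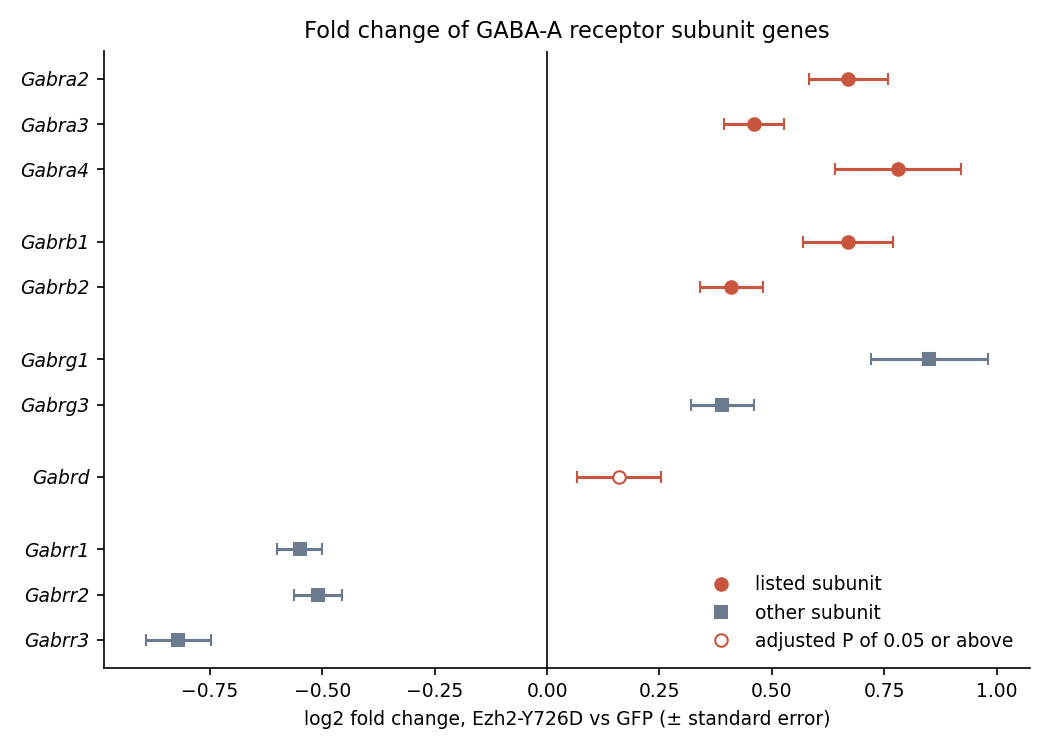
Log2 fold change of Ezh2-Y726D against GFP (horizontal axis) with its standard error, for GABA-A subunit genes grouped by class. Red circles are the tested members (open where not called) and grey squares the other subunits: the rho subunits lie below 0, from -0.51 to -0.82, and the alpha, beta, gamma and delta subunits shown above it.

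The calls of the members were read against the scaling. Scaling by the total counts of each library moved the median of all genes to 0.49 on the log2 scale, and 65 genes were called in all. Under that scaling Gabra2 was at 1.15, Gabra3 at 0.96, Gabra4 at 1.24, Gabrb1 at 1.19 and Gabrb2 at 0.93, each above the shift, and none was called (edgeR's adjusted P from 0.17 to 0.337). The rho subunits were then at -0.05 for Gabrr1, -0.00 for Gabrr2 and -0.32 for Gabrr3, each below the shift, and none was called. Without the 2 GFP libraries that are high in CT010467.1, the 5 called members stayed called, at 0.70, 0.54, 0.83, 0.58 and 0.32 for Gabra2, Gabra3, Gabra4, Gabrb1 and Gabrb2. That fit left 1 GFP library, which is assumed to vary as the Ezh2-Y726D libraries do.

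**Figure D3:**
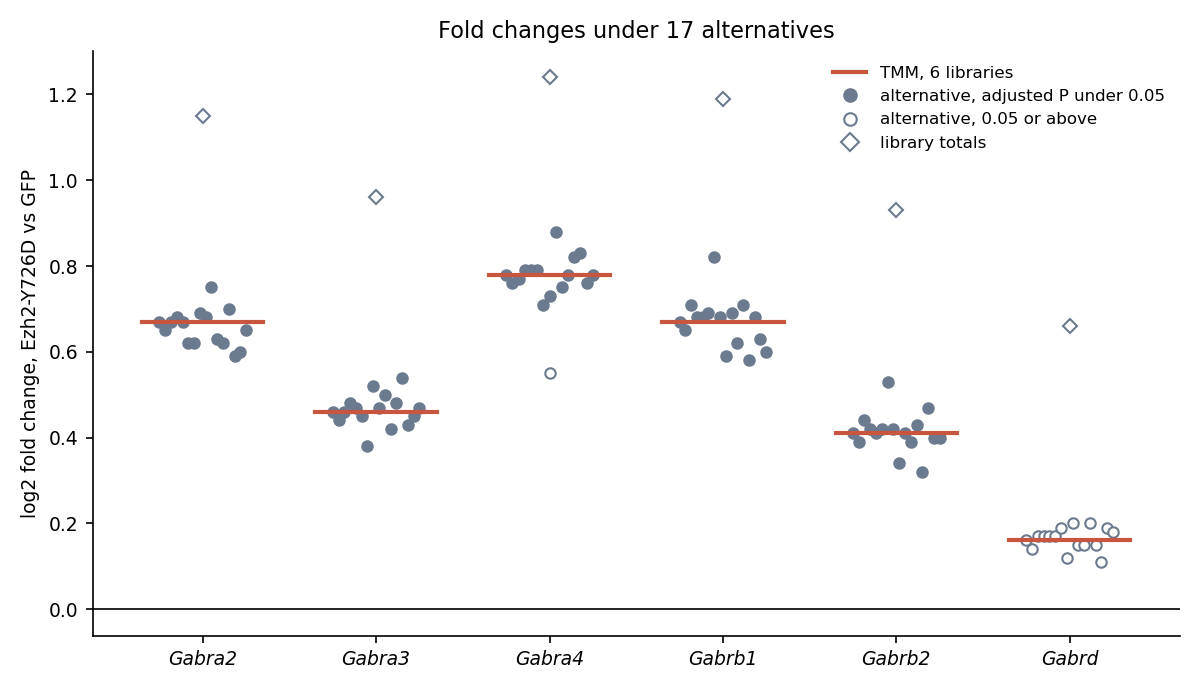
Log2 fold change of Ezh2-Y726D against GFP (vertical axis) for each tested member under TMM with all 6 libraries (red line) and under 17 alternatives (points, filled where the gene was called, diamonds for library totals). All values lie above 0, and the diamonds are highest for each gene and open. Every point of Gabrd is open as well, and so is 1 other point of Gabra4, at 0.55.

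Proteins that hold or carry the receptors, and the enzymes and transporters of GABA, were listed alongside. Of 18 tested genes for anchoring and trafficking, 7 were higher and 2 lower, with a median log2 fold change of 0.05, where 13.9% of all genes tested were called higher and 13.6% lower. The share called lower was near that of all genes. Shisa7, which encodes an auxiliary subunit of the receptor, rose by 0.59 (SE 0.11), Nlgn2, a cell adhesion protein of inhibitory synapses, by 0.35 (SE 0.052), and Iqsec3, a gephyrin-binding exchange factor, by 0.30 (SE 0.042). Gphn, which encodes gephyrin, the scaffold at the synapse, had 47.4 to 53.7 CPM in GFP and 57.6 to 61.4 CPM in Ezh2-Y726D libraries, a log2 fold change of 0.27 (SE 0.055). Gabarap, which encodes a trafficking protein, and Trak2 were lower, at -0.15 and -0.11, but neither was called with DESeq2 or without GFP replicate 1, Ezh2-Y726D replicate 1 or Ezh2-Y726D replicate 3. Trak2 was not called with any single library left out (adjusted P from 0.0526 to 0.114 in edgeR).

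Of 6 tested genes of the GABA-B receptor, the G protein-coupled receptor for GABA, 4 were higher and none lower, with a median of 0.35, beside the same 13.9% and 13.6% of all genes tested. Gabbr1 and Gabbr2, which encode its 2 subunits, rose by 0.34 (SE 0.041) and 0.37 (SE 0.053). Kctd8 and Kctd16, which encode auxiliary subunits, rose by 0.69 (SE 0.068) and 0.36 (SE 0.09). Of the 7 genes reported here for making and moving GABA, 6 were higher, against 13.9% of all genes tested, and 1 was lower, against 13.6%, with a median of 0.61. Gad1, which encodes a GABA-synthesising enzyme, had 278.9 to 313.5 CPM in GFP and 479.4 to 494.9 CPM in Ezh2-Y726D libraries (log2 fold change 0.69, SE 0.043). Gad2 was at 0.61, Slc32a1, the vesicular transporter, at 0.70 and Abat, which encodes the enzyme that breaks GABA down, at 0.33, all called, while Slc6a13, a low gene at 2.15 to 3.48 CPM in GFP, fell by 1.17 (SE 0.23) on the log2 scale. Exons of other genes overlap 24.9% of Slc32a1. Slc6a12, a betaine and GABA transporter, was at 0.81 and called, but not without GFP replicate 1 (0.61, edgeR's adjusted P = 0.123) nor with libraries thinned to the shallowest (0.53, edgeR's adjusted P = 0.202). Slc12a5, the chloride exporter that sets the driving force of the channel, was at 0.11 and called by edgeR, but in only 6 of 17 alternatives and not without GFP replicate 2 or 3 or Ezh2-Y726D replicate 1 or 2 (highest adjusted P 0.168 in edgeR), and without both GFP libraries high in CT010467.1 it was at 0.05 (adjusted P 0.576 in edgeR). Slc12a2, the importer, was at -0.06 and not called.

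**Figure D4:**
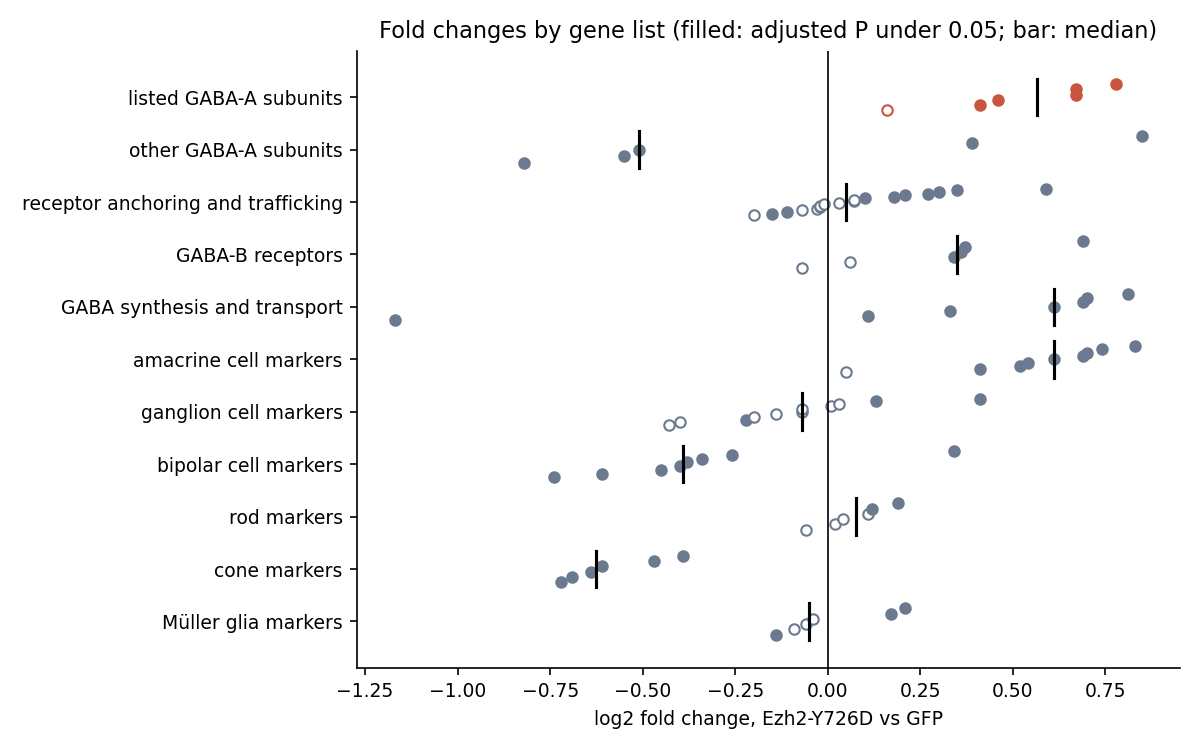
Log2 fold change of Ezh2-Y726D against GFP (horizontal axis) of every tested gene of the listed groups (rows), with filled points where the gene was called and a bar at the median of the group. The medians of the 6 tested members and of amacrine cell markers are 0.57 and 0.61, and those of bipolar cell and cone markers -0.39 and -0.63.

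Markers of some cell types differed between the groups, in both directions, and those of others differed little. The counts of markers stand beside 13.9% of all genes tested that were called higher and 13.6% lower. Of the 9 tested amacrine cell markers 8 were higher, with a median log2 fold change of 0.61, their sum being 683.9 to 765.4 CPM in GFP and 1149 to 1194 CPM in Ezh2-Y726D libraries, while Chat and Slc18a3, markers of starburst amacrine cells, were at 0 counts in at least 1 library. Gad1, Gad2 and Slc32a1 are in both lists. RGC markers were higher in 2 and lower in 1 of 11, near the shares of all genes, at a median of -0.07, and the sums overlapped, at 447.7 to 462.4 CPM in GFP and 437.8 to 475.0 CPM in Ezh2-Y726D libraries. Bipolar cell markers were lower in 7 and higher in 1 of 8, at -0.39, and their sum was 978.7 to 990.8 CPM in GFP and 810.4 to 829.5 CPM in Ezh2-Y726D libraries, beside the rho subunits that fell. Cone markers were lower in 6 of 6, microglia markers in 5 of 7 (and higher in 1, P2ry12) and activated phagocyte markers in 6 of 6, with medians of -0.63, -0.39 and -1.20. Rod and Müller glia markers were at medians of 0.07 and -0.05, and endothelial, pericyte and T cell markers at -0.13, -0.38 and -0.67. The part of the amacrine and bipolar markers in the changes of the subunits was not tested.

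For each tested member, the genes most like it across the 6 libraries were found among 12245 with at least 5 CPM on average, by Pearson's r of log2(CPM + 1). These points share the same 2 groups and libraries, and r is given as a description. Gpr22 and Nav3 were nearest to Gabra2 at 0.999, Gmps and Prune2 to Gabra3 at 0.999, Cnn3 and Alkbh8 to Gabra4 at 0.996, Baiap3 and Dnajc6 to Gabrb1 at 0.998, Limk2 to Gabrb2 at 0.999 and Ccl27a at 0.997, and Fgf9 and Stub1 to Gabrd at 0.992 and 0.989. Many genes are alike at this number of libraries: 434 were over 0.95 with Gabra2, 384 with Gabra3, 131 with Gabra4, 536 with Gabrb1, 401 with Gabrb2 and 42 with Gabrd.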

How the data were processed

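CD90.2-sorted retinal cells were profiled by RNA-Seq of total RNA, with 3 libraries for GFP and 3 for Ezh2-Y726D. The authors deposited whole-number read counts per gene, not normalized. The submitters' processing notes name STAR 2.7.0d and GRCm38, and the labels a stranded kit. The counting tool, annotation and strand setting are not given in the sources used here. Symbols were found for 32325 of 32371 gene IDs, and coordinates and exon lengths come from GENCODE vM21, which may differ from the annotation the authors used.

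Counts were tested with edgeR 4.0.16 in R 4.3.3 (TMM, filterByExpr with a minimum count of 10, quasi-likelihood test, Benjamini-Hochberg over 18138 genes) without a replicate block. The script was tested on simulated data. DESeq2 1.42.0, other scalings and filters, thinning, GC and length trends and leaving out libraries were alternatives.

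Named were the 7 members, other subunits with a count, Ezh2, and pathway genes called with an absolute log2 fold change of at least 0.3 or on which a sentence turns. The 2 genes most like each member were also named. Iqsec3, at 0.30 only after rounding, was named too but was not followed under the alternatives. The members and lists were chosen with earlier results of these data known. Some listed genes and the planned subunit shares are not reported here, and counts over the lists leave those genes out.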

Additional observations from a re-analysis of the deposited data

How the results depend on the processing

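The 5 called members kept their direction under all 17 alternatives, and their calls in all but 2 of them. Scaling by library totals left 0 members called, 0 other subunits called higher and 0 lower, 0 pathway genes called higher and 0 lower, and 65 of all genes instead of 4988, and it turned Gabarap to 0.35, Trak2 to 0.39 and Slc12a2 to 0.44. Without the 2 GFP libraries high in CT010467.1, Slc12a2 was at 0.04. Thinning to the shallowest library lost the calls of Gabra4 and, among the pathway genes named other than Iqsec3, Slc6a12, Trak2 and Slc12a5. Leaving out single libraries kept 5 members called each time. Of all genes, 1455 passed a fold change of 1.5 and 443 a fold change of 2. The pathway genes called lower were 3, but 1 with DESeq2 and 1 to 2 when a library was left out, and those called higher were 18, but 15 with RLE size factors, 14 when thinned and 14 to 17 when a library was left out. The cause was not tested for any of these. With the replicate number as a block, the members called stayed at 5, Gabra2 was at 0.62 and Gabrd at 0.17, and 5223 genes were called. Deviations of libraries with the same number correlated at 0.137, 0.051 and 0.0391, so the numbers were not read as pairs, although each library correlated best with its own number, which is a hint from the data and not from the design. Gabra5 had at most 7 counts in any library, deep ones included, and Gabra4 as few as 27 in the shallow GFP libraries, which limits what can be said of both.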

Other observations

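The genes next to the subunit clusters were examined after the values of the subunits had been seen. On chromosome 5, Gabrg1, Gabra2, Gabra4 and Gabrb1 lie within 1.40 Mb, and all 4 were higher with Ezh2-Y726D. Of 12 tested genes within 1 Mb of that cluster, 1 was higher (Cnga1, a rod channel subunit, log2 fold change 0.19) and 3 were lower (Txk at -1.07, Tec at -0.58, both kinases known from immune cells, and Fryl at -0.14), with a median of -0.12. Over all genes tested, 13.9% were called higher and 13.6% lower. The 12 neighbours all lie on the Gabrb1 side of the cluster, and the Gabrg1 side held no tested gene within 1 Mb. Kctd8, which rose by 0.69, lies farther out on the Gabrg1 side (chr5:69109285-69341679). No test of a cluster against its neighbours was made.

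Within 1 Mb of Gabrr1 and Gabrr2 on chromosome 4, 1 of 15 tested genes was higher and 2 were lower, beside 13.9% and 13.6% of all genes tested, and their median log2 fold change was -0.01. Cnr1, which encodes the cannabinoid receptor CB1, was higher at 0.62, and Bach2os at -1.23 and Lyrm2 at -0.45 were lower. Other tested genes lie between Cnr1 and the rho subunits.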
